A study of Mus musculus with 6 samples.

Results

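The HOX cluster genes were the 39 features of the deposited count matrices whose symbol read *Hoxa*, *Hoxb*, *Hoxc* or *Hoxd* followed by a number, out of 32286 features in all. Cluster A held 11 of them, cluster B 10, cluster C 9 and cluster D 9, and the symbol alone decided membership. They were read in single-cell RNA sequencing (scRNAseq) of digits in a dish (DID) cultures, in which mesenchyme cells of the mouse limb bud reassemble on a plastic dish. There were 6 libraries, with cultures taken at Day 2, Day 7 and Day 10 after seeding and 2 independent cultures per day, named replicate A and replicate B. Every culture was wild type and came from the distal end of E11.5 CD-1 forelimb buds, micro-dissected, pooled over embryos, dissociated and plated at high density in medium with fetal bovine serum. No library was treated and none carried a mutation, and the groups were defined by days of culture. The limits of the study on cells also differed between days. The labels do not say whether the days shared a seeding pool or a sequencing run. Because embryos were pooled before plating, the replicates measured the spread between cultures and not between animals.

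HOX genes encode homeodomain transcription factors that assign position along the body and limb axes. They lie in clusters on separate chromosomes, and members that share a number (a paralogue group) descend from a common ancestor and resemble each other across clusters. Genes at the 3′ end of a cluster carry low numbers and are switched on early and anteriorly, and genes at the 5′ end carry high numbers and are switched on later and more distally. In the limb bud, the 5′ genes of clusters A and D pattern the arm from shoulder to digit, *Hoxa11* is known for the forearm region, and *Hoxa13* and *Hoxd13* are required to form the hand and its digits. Cluster B is little used for limb patterning, and the 5′ genes of cluster C are known for the hindlimb.

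Because *Hoxd13* and *Hoxd12* lay at one end of cluster D and fell, while *Hoxd8* of the same cluster passed no test between Day 2 and Day 7, their start regions are shown together with that of *Hoxa13*, the paralogue of *Hoxd13*. Each sequence is the 250 bases before the RefSeq start of the gene on GRCm38.p6, written in the direction of transcription, with TATAAA (the TATA box core) and CCAAT in capitals where either was found on either strand, so that a capital TTTATA or ATTGG is the same motif read from the other strand. The windows are chr2:74667975-74668224 on the plus strand for *Hoxd13*, chr2:74674763-74675012 on the plus strand for *Hoxd12*, chr2:74704365-74704614 on the plus strand for *Hoxd8* and chr6:52260881-52261130 on the minus strand for *Hoxa13*.
Hoxd13: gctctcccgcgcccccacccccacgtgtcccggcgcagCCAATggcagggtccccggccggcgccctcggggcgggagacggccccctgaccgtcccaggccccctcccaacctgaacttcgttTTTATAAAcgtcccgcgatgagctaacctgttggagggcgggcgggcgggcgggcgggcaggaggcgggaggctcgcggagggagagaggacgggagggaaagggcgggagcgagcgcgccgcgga
Hoxd12: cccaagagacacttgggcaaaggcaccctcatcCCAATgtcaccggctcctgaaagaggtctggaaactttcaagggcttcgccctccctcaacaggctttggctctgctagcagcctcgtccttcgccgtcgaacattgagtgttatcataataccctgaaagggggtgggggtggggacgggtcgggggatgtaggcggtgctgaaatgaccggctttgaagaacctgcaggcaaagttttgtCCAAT
Hoxd8: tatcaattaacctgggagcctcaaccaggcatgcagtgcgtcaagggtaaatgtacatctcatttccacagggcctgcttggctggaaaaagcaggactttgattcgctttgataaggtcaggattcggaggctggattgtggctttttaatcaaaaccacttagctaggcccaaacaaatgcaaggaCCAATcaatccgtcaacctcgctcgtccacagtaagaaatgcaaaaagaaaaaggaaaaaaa
Hoxa13: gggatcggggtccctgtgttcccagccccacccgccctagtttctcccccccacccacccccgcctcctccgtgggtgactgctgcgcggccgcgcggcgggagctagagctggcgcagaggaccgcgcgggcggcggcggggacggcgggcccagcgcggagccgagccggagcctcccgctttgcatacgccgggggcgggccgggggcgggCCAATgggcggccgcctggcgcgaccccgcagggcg
Among these windows, that of *Hoxd13* held both motifs, with TATAAA on both strands in overlapping positions, and those of *Hoxd12*, *Hoxd8* and *Hoxa13* held CCAAT without TATAAA. The windows of *Hoxd13* and *Hoxa13* held 31 and 35 CpG dinucleotides, against 10 for *Hoxd12* and 6 for *Hoxd8*. RefSeq windows were at hand for 22 of the 39 members, 24 windows in all. TATAAA stood in 4 of the 24 and in 12.4% of all 32851 windows of the same length, and CCAAT stood in 14 of the 24 and in 33.8% of all of them. These are letter matches, and no binding or promoter activity was measured.

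The cells that passed the limits of the study held 178022112 to 260245417 UMIs (unique molecular identifiers, 1 per captured RNA molecule) per library, of which 60134 to 130017 came from HOX genes. Between 36 and 120 cell barcodes were shared between any pair of libraries. The forelimb origin could be read in the limb genes, since *Tbx5*, the forelimb factor, held 119 to 120 CPM (UMIs relative to the library, defined below) at Day 2, against 1.86 to 1.90 for *Tbx4* and 1.51 to 1.66 for *Pitx1*, which mark the hindlimb. Dividing cells made up a smaller share later, as among cells of at least 3000 UMIs, thinned to 3000, those with a UMI of *Mki67*, *Top2a* or *Cenpf* made up 43.7% and 58.8% in the Day 2 libraries, 23.8% and 21.5% in those of Day 7 and 17.6% and 19.4% in those of Day 10. The 12 cartilage genes used below took 0.210% and 0.231% of UMIs at Day 2, then 2.37% and 2.19% at Day 7 and finally 1.40% and 1.30% at Day 10. Both values moved with the days across which HOX genes are compared, and their part in the HOX changes was not tested except where a comparison within cells is given. Summed libraries also cannot tell fewer cells that use a gene from less RNA per cell.

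HOX RNA as a whole stood lower at Day 7 than at Day 2 and was near its Day 7 level at Day 10. Summed over all 39 members, the level was 563 and 534 CPM for Day 2, 324 and 324 for Day 7 and 352 and 350 for Day 10. CPM is the share of a library's UMIs in the usual scaled unit, here on library sizes corrected with TMM factors, which align libraries on the bulk of genes. The level at Day 7 was therefore 59.1% of that at Day 2 and the level at Day 10 was 64.0% of it, and with library totals as the scale these shares were 48.6% and 53.5%. Between days, library totals in place of TMM would have moved every log2 fold change by -0.28 from Day 2 to Day 7, by 0.02 from Day 7 to Day 10 and by -0.26 from Day 2 to Day 10. All levels and fold changes below are on the TMM scale unless a plain CPM is named, and UMIs of a 3′ kit count molecules, so that they do not grow with gene length.

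Of the 39 members, 35 had enough counts to be tested with edgeR's quasi-likelihood test among 18987 genes, with Benjamini-Hochberg adjustment over all of them and a call at an adjusted p under 0.05. From Day 2 to Day 7, 19 members fell, where 34.6% of all genes tested fell, and 5 rose, where 35.7% of all genes rose. The median log2 fold change was -0.34 over the members and 0.01 over all genes. From Day 7 to Day 10, 2 members fell and 15 rose, against 25.9% and 26.3% of all genes, with a median of 0.30 over the members and -0.02 over all genes. From Day 2 to Day 10, 17 fell and 9 rose, against 38.2% and 39% of all genes, with a median of -0.31 over the members and 0.00 over all genes. These comparisons share libraries, so that their counts are not independent. The count of members that rose from Day 2 to Day 7 was 3 without Day 7 replicate A, and the count that rose from Day 7 to Day 10 was 9 without Day 7 replicate B. Without the cells that held a UMI of the proliferation genes, an alternative chosen after the values were seen, 16 members fell and 4 rose from Day 2 to Day 7, and 13 fell and 12 rose from Day 2 to Day 10. Among the cells with the fewest cartilage UMIs, chosen likewise, 18 fell and 3 rose from Day 2 to Day 7, and among those with the most cartilage UMIs 13 fell and 10 rose. The shares of all genes in these subsets of cells are not given, so that the counts describe the members only.

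The 5′ genes of clusters A and D carried most of the HOX RNA of these cultures, and all of them that were tested fell. The 9 members of paralogue groups 9 to 13 of these clusters fell from Day 2 to Day 7 and from Day 2 to Day 10, with median log2 fold changes of -0.86 and -0.75. From Day 7 to Day 10 none of the 9 fell and 2 rose, *Hoxd10* and *Hoxa10*, where 25.9% of all genes fell and 26.3% rose. The rise of *Hoxa10* lost its call without any 1 of 3 libraries. Among all members of groups 1 to 4, 5 of 11 tested fell and 1 rose from Day 2 to Day 7, and among groups 5 to 8, 4 of 11 fell and 3 rose, where 34.6% of all genes fell and 35.7% rose. Across the whole interval to Day 10, groups 1 to 4 had 3 members that fell and 2 that rose, and groups 5 to 8 had 3 and 6, against 38.2% and 39% of all genes. Groups 9 to 13 held 84.2% of HOX UMIs at Day 2, 77.4% at Day 7 and 74.5% at Day 10.

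**Figure D1:**
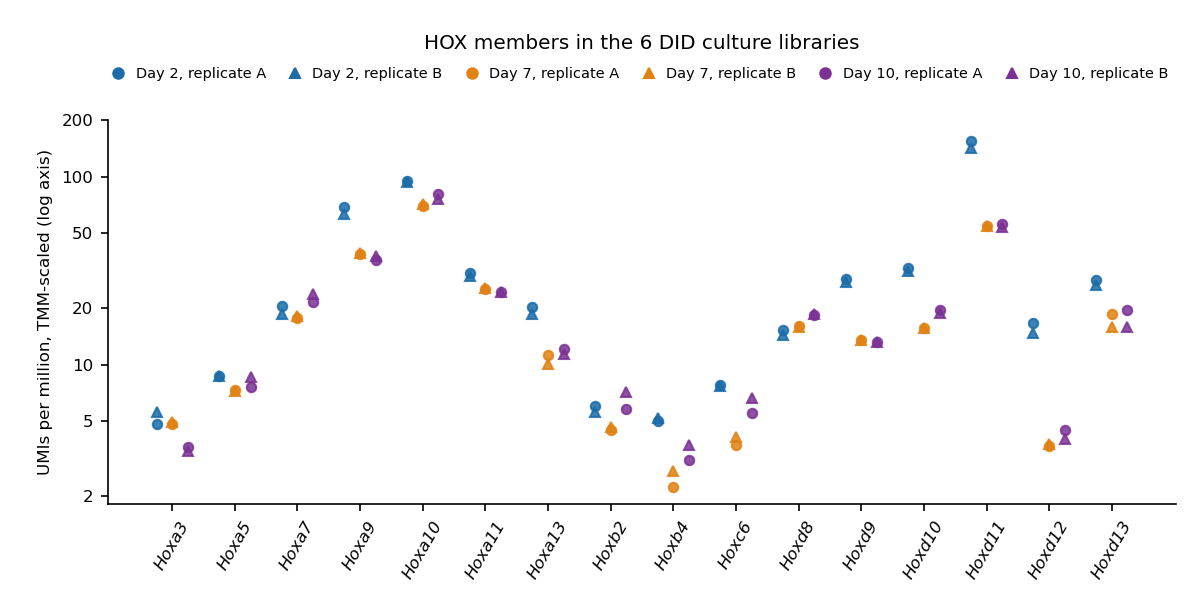
Level of the 16 HOX genes that reached a mean of 5 CPM on at least 1 day, in TMM-scaled CPM on a log axis. Each symbol is 1 library (2 per day), and the 5′ genes of cluster D stand lower at Day 7 and Day 10 than at Day 2. *Hoxd8* does not, and *Hoxa7* stands highest at Day 10.

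Cluster D lies on the plus strand of chromosome 2, with *Hoxd13* (ENSMUSG00000001819) from 74668310 to 74671599 on GRCm38 as its 5′ end and *Hoxd1* ending at 74765142. Its summed level was 279 and 260 CPM on Day 2, 125 and 122 on Day 7 and 135 and 129 on Day 10, which is 46.0% and 49.0% of Day 2. Of its 9 members, 6 fell from Day 2 to Day 7 and none rose, against 34.6% and 35.7% of all genes. *Hoxd11* (ENSMUSG00000042499), which acts in the forearm and hand, was the most abundant HOX gene at Day 2, with 154 and 142 CPM in the Day 2 libraries, 54.5 and 54.3 in those of Day 7 and 56.1 and 53.9 in those of Day 10. Its Day 2 libraries held the highest values and the later libraries did not overlap them. The log2 fold change was -1.45 ± 0.0563 (SE) at Day 7 and -1.43 ± 0.0562 at Day 10 against Day 2 (edgeR adjusted p = 8.71e-08 and 5.91e-08).

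*Hoxd12* (ENSMUSG00000001823), the neighbour of *Hoxd13* in the digit region, had the steepest fall among the 16 members given in full. It stood at 16.6 and 14.7 CPM at Day 2, then 3.70 and 3.79 at Day 7 and finally 4.48 and 4.04 at Day 10. That was 4.18-fold lower at Day 7, with a log2 fold change of -2.06 ± 0.0834 and an adjusted p of 1.07e-07 in edgeR, and -1.88 ± 0.0817 at Day 10 (adjusted p = 1.01e-07). The small difference from Day 7 to Day 10 did not pass the test (0.19 ± 0.0848, adjusted p = 0.0973).

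*Hoxd13*, which is needed for digit number and length, held 28.1 and 26.4 CPM for Day 2, 18.5 and 15.9 for Day 7 and 19.5 and 15.8 for Day 10. Both Day 2 libraries stood above the later libraries, and replicate A was above replicate B on every day. The log2 fold change was -0.67 ± 0.104 at Day 7 (edgeR adjusted p = 0.000431) and -0.63 ± 0.104 at Day 10 (adjusted p = 0.000478), and from Day 7 to Day 10 it was 0.03 ± 0.105 (adjusted p = 0.804). The ratio of Day 7 to Day 2 was thus 0.631 for *Hoxd13*, against 0.239 for *Hoxd12* and 0.367 for *Hoxd11* beside it, and these differences between genes were not tested.

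The next genes of the cluster fell to about the same degree as each other. *Hoxd10* (ENSMUSG00000050368) had 32.5 and 31.4 CPM on Day 2, 15.6 and 15.6 on Day 7 and 19.4 and 18.7 on Day 10. It fell by 1.04 ± 0.0502 on the log2 scale to Day 7 (edgeR adjusted p = 2.81e-07) and then rose by 0.29 ± 0.0501 to Day 10 (adjusted p = 0.00169). *Hoxd9* (ENSMUSG00000043342) had 28.6 and 27.5 CPM in the Day 2 libraries, 13.5 and 13.4 in those of Day 7 and 13.2 and 13.2 in those of Day 10, and fell by 1.06 ± 0.0494 to Day 7 (adjusted p = 2.23e-07). After Day 7 *Hoxd9* moved by -0.03 ± 0.0496 (adjusted p = 0.687), and its difference from *Hoxd10* was not tested.

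*Hoxd8* (ENSMUSG00000027102), the next gene in the 3′ direction, did not follow. Its level was 15.2 and 14.3 CPM at Day 2, then 16.01 and 15.8 at Day 7 and finally 18.3 and 18.7 at Day 10. The log2 fold change to Day 7 was 0.11 ± 0.053 (edgeR adjusted p = 0.106), and it rose by 0.22 ± 0.0527 from Day 7 to Day 10 (adjusted p = 0.00887), a call that was lost without Day 7 replicate A, without Day 7 replicate B or without Day 10 replicate B (adjusted p = 0.0548, 0.0654 and 0.0517), so that Day 10 stood above Day 2 by 0.32 ± 0.0527 (adjusted p = 0.000467). With library totals as the scale, the sign of *Hoxd8* from Day 2 to Day 7 turns. The remaining members of the cluster were low, *Hoxd4* at 2.53 to 3.96 CPM, *Hoxd3* at 0.312 to 0.600 and *Hoxd1* at 0.0377 to 0.108. *Hoxd4* rose from Day 2 to Day 10 by 0.56 ± 0.0872 (adjusted p = 0.000357), but it shares exons on the same strand with *Hoxd3*, so that reads of these genes cannot be fully assigned.

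Cluster A lies on the minus strand of chromosome 6, with *Hoxa13* (ENSMUSG00000038203) at 52257694 to 52260880. It kept a larger share of its level than cluster D, with 253 and 243 CPM for Day 2, 180 and 182 for Day 7 and 190 and 189 for Day 10, or 72.8% and 76.5% of Day 2. Its part of all HOX UMIs was 45.3% at Day 2, 55.8% at Day 7 and 54.1% at Day 10, while that of cluster D was 49.1%, 38.2% and 37.6%. From Day 2 to Day 7, 5 of its 11 members fell and 2 rose, against 34.6% and 35.7% of all genes.

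*Hoxa13*, which the hand and digits require, held 20.2 and 18.6 CPM on Day 2, 11.2 and 10.1 on Day 7 and 12.2 and 11.3 on Day 10. The Day 2 libraries were the highest and did not overlap the others. It was 1.82-fold lower at Day 7, with a log2 fold change of -0.86 ± 0.0718 (edgeR adjusted p = 7.4e-06), and -0.72 ± 0.0711 at Day 10 (adjusted p = 1.62e-05).

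*Hoxa11* (ENSMUSG00000038210), known for the forearm, had the smallest fall to Day 7 among these 9 genes. Its values were 30.5 and 29.7 CPM in the Day 2 libraries, 25.1 and 25.6 in those of Day 7 and 24.4 and 24.3 in those of Day 10. The falls passed the test but were small, -0.25 ± 0.047 to Day 7 (edgeR adjusted p = 0.00135) and -0.31 ± 0.0468 to Day 10 (adjusted p = 0.000285). *Hoxa11os*, transcribed from the opposite strand of the same locus, had more UMIs than *Hoxa11* itself, with 77.4 and 66.9 CPM at Day 2, then 43.9 and 45.2 at Day 7 and finally 46.5 and 43.8 at Day 10, and fell by 0.69 ± 0.0723 to Day 7 (adjusted p = 3.13e-05). The kit keeps the strand of a read, so that the RNAs of this locus were counted apart.

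*Hoxa10* (ENSMUSG00000000938) was second to *Hoxd11* at Day 2 and the most abundant member at Day 7 and Day 10, and it held 95.1 and 93.9 CPM for Day 2, 69.8 and 71.3 for Day 7 and 80.8 and 75.6 for Day 10. It fell by 0.42 ± 0.0511 on the log2 scale to Day 7 (edgeR adjusted p = 8.42e-05) and its rise of 0.15 ± 0.051 from Day 7 to Day 10 (adjusted p = 0.0382) lost its call without Day 7 replicate A, without Day 7 replicate B, without Day 10 replicate A and with all barcodes (adjusted p = 0.222, 0.127, 0.252 and 0.106). *Hoxa9* (ENSMUSG00000038227), which acts with its paralogues where the limb meets the trunk, had 68.7 and 63.5 on Day 2, 38.6 and 39.2 on Day 7 and 36.0 and 38.0 on Day 10. Its fall of 0.77 ± 0.0566 to Day 7 (adjusted p = 3.55e-06) was not followed by a rise (-0.07 ± 0.0565, adjusted p = 0.307).

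In the middle and 3′ part of cluster A the days differed less. *Hoxa7* (ENSMUSG00000038236) held 20.5 and 18.6 CPM in the Day 2 libraries, 17.7 and 18.1 in those of Day 7 and 21.4 and 23.7 in those of Day 10, and it rose from Day 7 to Day 10 by 0.33 ± 0.068 (edgeR adjusted p = 0.00393). The rise of 0.21 from Day 2 to Day 10 (adjusted p = 0.0199) lost its call without Day 2 replicate B or without Day 10 replicate B, and its sign turns on library totals. *Hoxa5* (ENSMUSG00000038253) held 8.72 and 8.74 at Day 2, then 7.33 and 7.22 at Day 7 and finally 7.57 and 8.55 at Day 10, and its fall of 0.26 ± 0.0707 to Day 7 (adjusted p = 0.00903) lost its call without Day 7 replicate B and in cells without proliferation UMIs (-0.14, adjusted p = 0.136). *Hoxa3* (ENSMUSG00000079560), a gene of the head and neck in the embryo, fell late instead, with 4.82 and 5.57 for Day 2, 4.84 and 4.95 for Day 7 and 3.64 and 3.49 for Day 10, and a log2 fold change from Day 7 to Day 10 of -0.46 ± 0.0875 (adjusted p = 0.00273).

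*Hoxa2*, *Hoxa4* and *Hoxa6* of the same cluster stood under 3 CPM in every library. *Hoxa6* rose by 0.42 ± 0.117 to Day 7 (edgeR adjusted p = 0.011) and fell by 0.88 ± 0.119 to Day 10 (adjusted p = 0.000497). *Hoxa2* and *Hoxa4* passed no test between days, with log2 fold changes of -0.20 and -0.09 from Day 2 to Day 10.

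**Figure D2:**
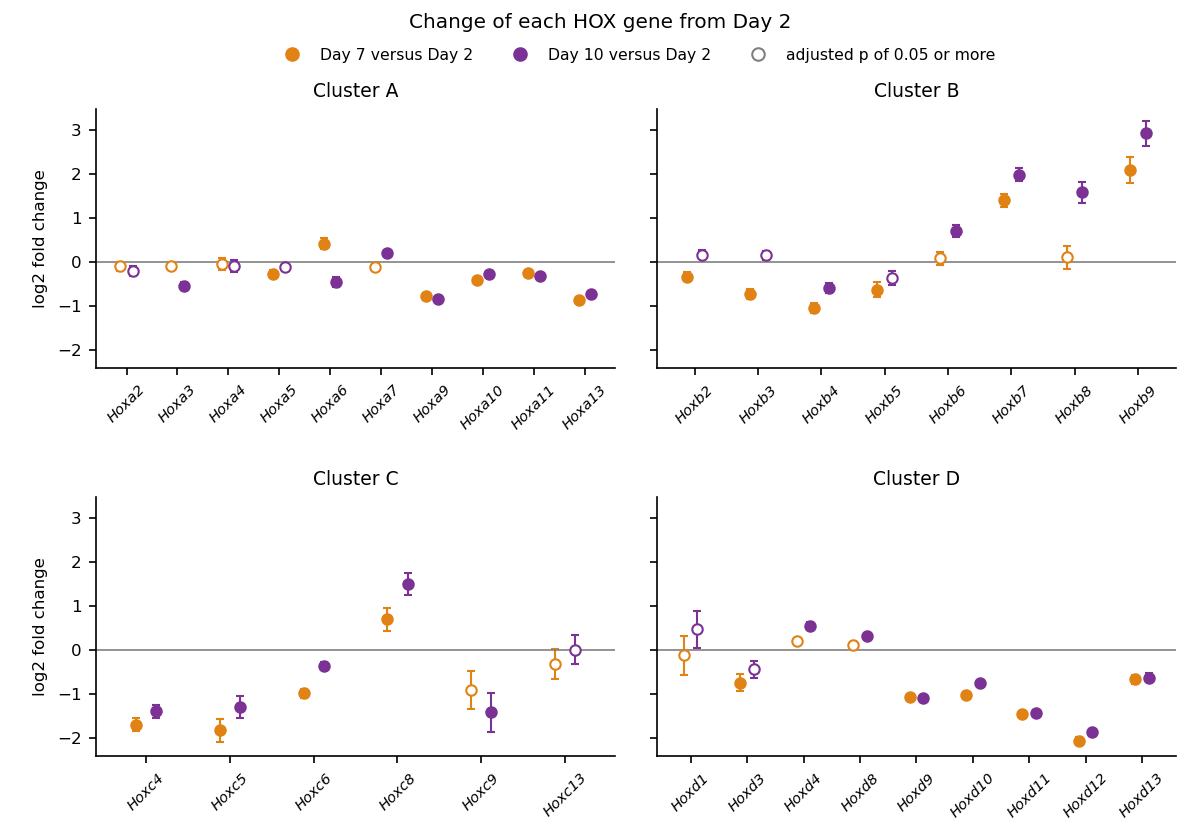
Log2 fold change (TMM scale) of each tested member from Day 2 to Day 7 and from Day 2 to Day 10, ordered by paralogue group within each cluster, with bars of 1 SE and with *Hoxc11* and 1 other member left out. The members of groups 9 to 13 of clusters A and D lie below 0, and cluster B holds the largest rises, with *Hoxb9* at 2.93 and *Hoxb7* at 1.99 at Day 10.

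Cluster B, on the plus strand of chromosome 11, made up 3.08% of HOX UMIs at Day 2 and 5.76% at Day 10. Its level was 17.1 and 16.6 CPM on Day 2, 13.01 and 13.5 on Day 7 and 18.3 and 22.2 on Day 10, so that at Day 10 it stood at 120% of Day 2 on the TMM scale and at 100.2% of it on library totals. From Day 7 to Day 10, 7 of its 8 tested members rose and none fell, against 26.3% and 25.9% of all genes. From Day 2 to Day 7, 4 fell and 2 rose (34.6% and 35.7% of all genes), and over the whole interval 1 fell and 4 rose (38.2% and 39%).

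*Hoxb2* (ENSMUSG00000075588), best known from the hindbrain, held 6.03 and 5.58 CPM in the Day 2 libraries, 4.49 and 4.68 in those of Day 7 and 5.82 and 7.18 in those of Day 10. Its fall of 0.34 ± 0.103 to Day 7 (edgeR adjusted p = 0.0157) lost its call without Day 2 replicate A, without Day 7 replicate A and in cells without proliferation UMIs (-0.05, adjusted p = 0.737). In the cartilage-rich tertile of cells described below *Hoxb2* rose to Day 7 by 0.79 (adjusted p = 2.5e-05). In all cells it rose by 0.50 ± 0.102 from Day 7 to Day 10 (adjusted p = 0.00376). *Hoxb4* (ENSMUSG00000038692), also known from blood progenitors, held 5.03 and 5.22 at Day 2, then 2.24 and 2.70 at Day 7 and finally 3.11 and 3.73 at Day 10. It fell by 1.05 ± 0.119 to Day 7 (adjusted p = 5.22e-05), and its rise of 0.47 ± 0.119 to Day 10 (adjusted p = 0.0108) lost its call without Day 7 replicate A or without Day 10 replicate B.

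The rises of cluster B came from low levels, and the members named here and below 5 CPM elsewhere were picked after their values were seen. *Hoxb9* moved from 0.121 and 0.0885 CPM at Day 2 to 0.501 and 0.398 at Day 7 and 0.960 and 0.653 at Day 10, a log2 fold change over the whole interval of 2.93 ± 0.283 (edgeR adjusted p = 1.47e-05). *Hoxb7* moved from 0.787 and 0.816 to 2.13 and 2.10 and then 2.71 and 3.66, by 1.99 ± 0.154 (adjusted p = 3.32e-06). *Hoxb8* stood at 0.402 and 0.349 at Day 2 and at 0.343 and 0.468 at Day 7, and then reached 0.919 and 1.36 at Day 10 (1.49 ± 0.24 from Day 7, adjusted p = 0.00119). Neighbouring members *Hoxb3* and *Hoxb5* fell to Day 7 by 0.73 ± 0.11 and 0.64 ± 0.172 (adjusted p = 0.000355 and 0.00931). *Hoxb1* and *Hoxb13*, the end genes of the cluster, were not tested.

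Cluster C, on the plus strand of chromosome 15, was the least used by level, at 13.6 and 14.3 CPM for Day 2, 5.83 and 6.20 for Day 7 and 7.95 and 9.82 for Day 10. *Hoxc6* (ENSMUSG00000001661), expressed in the trunk beside the forelimb, held 7.82 and 7.67 on Day 2, 3.71 and 4.12 on Day 7 and 5.51 and 6.60 on Day 10. It fell by 0.98 ± 0.0969 to Day 7 (edgeR adjusted p = 2.18e-05) and rose by 0.63 ± 0.0972 to Day 10 (adjusted p = 0.000962), and the remaining fall of 0.36 from Day 2 to Day 10 (adjusted p = 0.00729) lost its call without Day 10 replicate A and in cells without proliferation UMIs (adjusted p = 0.0644). *Hoxc4* fell from 3.81 and 3.95 at Day 2 to 1.25 and 1.12 at Day 7 (-1.71 ± 0.149, adjusted p = 1.03e-05) and stood at 1.25 and 1.71 at Day 10. *Hoxc5* fell by 1.83 ± 0.255 to Day 7 (adjusted p = 0.000201), and it shares exons on the same strand with *Hoxc10*.

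The 5′ genes of cluster C, which mark the hindlimb, were near the floor. *Hoxc11* was counted in 16 and 10 UMIs in the Day 2 libraries, 1 and 0 in those of Day 7 and 3 and 0 in those of Day 10. It had enough counts for the test only through Day 2, so that a fall was the only call open to it. Its call at Day 7 (edgeR adjusted p = 0.00536) is therefore not read as a result, though it stays in the counts of members that fell. No fold is given at counts this low. *Hoxc9*, with 24 and 19 UMIs at Day 2 and 6 and 11 at Day 10, also owed its place in the test to Day 2. Its called fall from Day 2 to Day 10 is likewise not read as a result, and it too stays in the counts. *Hoxc10* and *Hoxc12* had at most 10 UMIs in any library and were not tested, like *Hoxb1* and *Hoxb13*. Over all clusters, 12 members stayed under 1 CPM on every day and 11 reached between 1 and 5, against a floor of 0.0115 to 0.0169 CPM for 3 UMIs, so that a change in the lowest of them was not detectable at this depth.

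**Figure D3:**
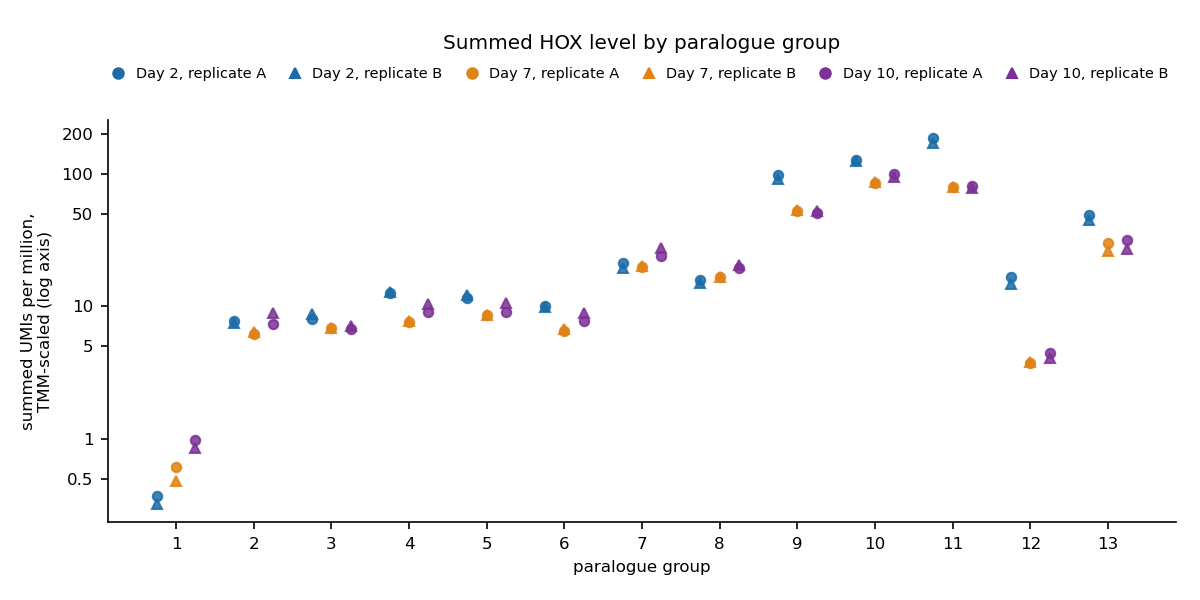
Summed level of the members of each paralogue group in TMM-scaled CPM on a log axis, 1 symbol per library. Groups 9 to 13 stand lower at Day 7 and Day 10 than at Day 2, with group 12 at 23.9% of Day 2 at Day 7, and groups 7 and 8 stand highest at Day 10.

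By paralogue group the share of the Day 2 level that was left at Day 7 differed widely. Group 12, carried by *Hoxd12*, kept 23.9%, group 11 kept 44.7%, group 9 56.0%, group 13 59.8% and group 10 68.1%. Group 11 went from 185 and 172 CPM at Day 2 to 79.7 and 79.9 at Day 7 and 80.5 and 78.2 at Day 10, and group 13 from 48.5 and 45.1 to 29.9 and 26.1 and then 31.8 and 27.2. Group 13 thus held 8.54% of HOX UMIs at Day 2, 8.65% at Day 7 and 8.40% at Day 10, while group 11 went from 32.5% to 24.6% and 22.6%.

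Groups 7 and 8 stood at 98.6% and 108% of Day 2 at Day 7 and 127% and 131% at Day 10, and on library totals at 81.1%, 88.9%, 106% and 109%. Group 1 stood at 264% of Day 2 at Day 10 from a sum of 0.372 and 0.324 CPM. Groups 2 to 6 stood between 60.6% and 82.4% of Day 2 at Day 7. Summed levels were not tested, since each is led by a few members whose own tests are given above.

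Per cell, fewer cells held a HOX UMI in the later cultures. After every cell of at least 3000 UMIs was thinned to 3000 UMIs, 79.4% and 79.0% of cells held a UMI of any member at Day 2, then 57.6% and 57.8% at Day 7 and finally 59.9% and 60.1% at Day 10. The mean number of members detected per cell was 1.59 and 1.53 for Day 2, 0.861 and 0.875 for Day 7 and 0.923 and 0.930 for Day 10. Cells with 3 or more members made up 21.7% and 19.7%, then 5.66% and 6.13%, then 6.90% and 7.17%. Without thinning, where cells differ in depth, all cells that passed the limits held a mean of 5.25 and 2.93 members on Day 2, 2.71 and 2.83 on Day 7 and 4.24 and 4.07 on Day 10.

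The gene seen in most cells was *Hoxd11* at Day 2 and *Hoxa10* at Day 7 and Day 10. *Hoxd11* had a UMI in 36.5% and 34.8% of thinned cells in the Day 2 libraries, 14.03% and 14.6% in those of Day 7 and 14.7% and 14.4% in those of Day 10. For *Hoxa10* these shares were 28.2% and 27.8%, 17.4% and 17.6%, and 18.8% and 17.4%. *Hoxd13* was seen in 9.11% and 7.54%, 5.39% and 4.34%, and 5.58% and 4.34% of cells, and *Hoxa13* in 6.96% and 6.04%, 3.16% and 2.998%, and 3.29% and 2.90%. The share with *Hoxd12* went from 5.92% and 4.58% at Day 2 to 1.13% and 1.32% at Day 7 and 1.33% and 1.004% at Day 10.

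Immune cells, in which limb HOX RNA should be scarce, served as the measure of background. Doublets were not called, and free RNA, doublets and HOX RNA of the immune cells themselves cannot be told apart in it. Among cells with at least 3 of 6 macrophage genes and 5 of their UMIs, a HOX UMI was found after thinning in 4 of 22 and 7 of 16 cells at Day 2, 12 of 29 and 11 of 47 at Day 7, and 19 of 132 and 25 of 174 at Day 10, which is 18.2%, 43.8%, 41.4%, 23.4%, 14.4% and 14.4%. Their median depth before thinning was 18876 and 12502, 30592 and 25388, and 20826 and 21526 UMIs, against 19568 and 12878, 18576 and 17053, and 26187 and 24819 in all cells. Every library had a larger share in all cells than in immune cells. For single genes at Day 10, at most 1 of 132 and 1 of 174 immune cells held each of *Hoxd13*, *Hoxa13* and *Hoxd12*. That is at most 0.758% and 0.575%. For *Hoxd12* the counts were 0 of 132 in replicate A and 1 of 174 in replicate B. In plain CPM, these immune cells held *Hoxd12* at 1.56 (0.506 to 3.64) and 0.722 (0.149 to 2.11). All cells of at least 3000 UMIs held 4.21 (3.96 to 4.46) and 3.84 (3.59 to 4.10). These exact Poisson intervals, which cover counting error only, did not overlap, so that *Hoxd12* stood above this background in both Day 10 libraries. At Day 2, 1 of 22 immune cells of replicate A and 2 of 16 of replicate B held *Hoxa13*, and 0 of 22 and 2 of 16 held *Hoxd12*, too few cells to give a background for these genes.

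*Hoxa13* and *Hoxd13* were found in the same cells more often than their shares would give if they were unrelated. In cells thinned to 10000 UMIs, both were seen in 675 of 7780 and 452 of 5438 cells at Day 2, where the product of their shares gives 266 and 174. The ratio of observed to expected cells was 2.54 and 2.60 at Day 2, then 2.40 and 2.71 at Day 7 and finally 2.24 and 2.34 at Day 10. For *Hoxd13* with *Hoxd12* it was 2.65 and 2.90, 2.98 and 2.86, and 2.06 and 2.30.

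The forearm gene *Hoxa11* gave lower ratios with the digit genes. With *Hoxa13* its ratio was 0.821 and 0.821 for Day 2, 1.24 and 1.03 for Day 7 and 1.05 and 1.24 for Day 10, and with *Hoxd13* it was 0.768 and 0.678, 0.989 and 0.923, and 1.10 and 1.06. At Day 2, therefore, *Hoxa11* was seen together with either group 13 gene in fewer cells than the product of their shares, and at Day 7 and Day 10 this was no longer so with *Hoxa13*. Ratios of this kind share the cells and the depth of a library and are given as a description without a test.

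To ask which cells kept HOX RNA, cells of at least 3000 UMIs were ranked within each library by the summed UMIs of 12 cartilage genes (*Col2a1*, *Acan*, *Matn1* and others) after thinning to 3000 UMIs. The top and bottom tertiles were then compared on their full UMI sums with edgeR, the library as a block, in 12 sums. A tertile (1 of 3 equal ranges of the ranking) is a range of cells and not a cell type. The top tertile held a median of 15 and 13 cartilage UMIs per cell on Day 2, 146 and 130 on Day 7 and 114 and 99 on Day 10. In the bottom tertile the medians were 0 and 1, 8 and 7, and 2 and 2. The top tertile began at 8 and 7 UMIs at Day 2, and the bottom tertile of Day 7 reached 19 and 15, so that a tertile does not hold the same class of cells on each day. Of 34 members tested among 17710 genes, 14 were lower in the top tertile at Day 2 and 6 higher, against 28.7% and 28% of all genes. At Day 7 12 were lower and 12 higher (36.5% and 35.7% of all genes), and at Day 10 16 were lower and 8 higher (34.7% and 37.4%). At Day 7 the number higher was 7 without Day 7 replicate A. These calls are on the TMM scale, and the plain CPM of the tertiles need not show the same difference. *Hoxd8* was called higher at Day 7 (0.25, edgeR adjusted p = 0.00455). Its plain levels were 14.6 (top) and 15.2 (bottom) in replicate A and 15.5 and 14.9 in replicate B.

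Most of the 5′ genes of clusters A and D were lower in the top cartilage tertile than in the bottom tertile at Day 7 and Day 10, while at Day 2 they were divided. Of the 9 members, 5 were higher and 1 lower in the top tertile at Day 2, 8 were lower and 1 higher at Day 7, and 8 were lower and 1 higher at Day 10. Of all genes, 28% were higher and 28.7% lower at Day 2. At Day 7 36.5% were lower and 35.7% higher, and at Day 10 34.7% and 37.4%. The plain levels of *Hoxa13* in top and bottom tertiles were 28.1 and 18.0 CPM in Day 2 replicate A and 24.6 and 18.5 in replicate B. At Day 7 they were 4.02 and 15.9 in replicate A and 3.96 and 13.7 in replicate B, and at Day 10 they were 8.43 and 12.6, and 7.39 and 12.1. The log2 fold change of top against bottom was 0.42 ± 0.0620 at Day 2 (edgeR adjusted p = 0.000162), -1.63 ± 0.0799 at Day 7 (adjusted p = 5.94e-09) and -0.55 ± 0.0708 at Day 10 (adjusted p = 2.59e-05).

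*Hoxd11* turned in the same way, from 0.34 at Day 2 to -1.20 at Day 7 and -1.07 at Day 10. Its plain levels were 200 and 142 CPM (top and bottom) in Day 2 replicate A, 185 and 140 in Day 2 replicate B, 25.9 and 75.5 in Day 7 replicate A and 27.4 and 71.2 in Day 7 replicate B. *Hoxd12* was lower in cartilage-rich cells on every day, by 0.48, 2.15 and 1.90 on the log2 scale. *Hoxd13* did not differ by the test at Day 2 (-0.09, adjusted p = 0.288) and was lower by 1.08 at Day 7 and 0.77 at Day 10. *Hoxd9* was the member of the 9 that was higher at Day 7 (0.37), and *Hoxa9* the one at Day 10 (0.21). In plain CPM at Day 7, *Hoxd9* stood at 13.7 (top) and 11.6 (bottom) in replicate A but at 12.39 and 12.38 in replicate B.

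More 3′ members of cluster A had the opposite sign in the later cultures. *Hoxa5* differed by -0.08 at Day 2 (edgeR adjusted p = 0.274), and in cartilage-rich cells it was higher by 0.52 at Day 7 (adjusted p = 2.9e-05) and 0.79 at Day 10 (adjusted p = 2.9e-07). *Hoxa3* was higher by 0.53 at Day 7 and 0.87 at Day 10, and at Day 2 it differed by 0.24 (adjusted p = 0.117). *Hoxa4*, a low gene, was lower by 0.55 at Day 2 (adjusted p = 0.0281) and higher by 1.42 and 1.52 on the later days. In cluster B, 7 of 8 tested members were lower in the top tertile at Day 2 (28.7% of all genes), among them *Hoxb4* (-1.42), *Hoxb2* (-1.18) and *Hoxb5* (-2.46). At Day 10, 5 of 8 were lower (34.7% of all genes). At Day 7, 3 of the 8 were lower and 2 were higher, *Hoxb7* (0.53) and *Hoxb2* (0.41), against 36.5% and 35.7% of all genes. In plain CPM at Day 7, *Hoxb2* stood at 5.12 (top) and 4.03 (bottom) in replicate A but at 4.71 and 4.80 in replicate B. Cells at the bottom had more UMIs than cells at the top at Day 10, with medians of 35107 and 33751 against 18000 and 16408, and in Day 2 replicate A (25514 against 16328). The median share of mitochondrial RNA was higher at the top at Day 10, with 4.83% against 3.47% in replicate A and 5.45% against 2.96% in replicate B. The part of depth and RNA quality in these differences was not tested.

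**Figure D4:**
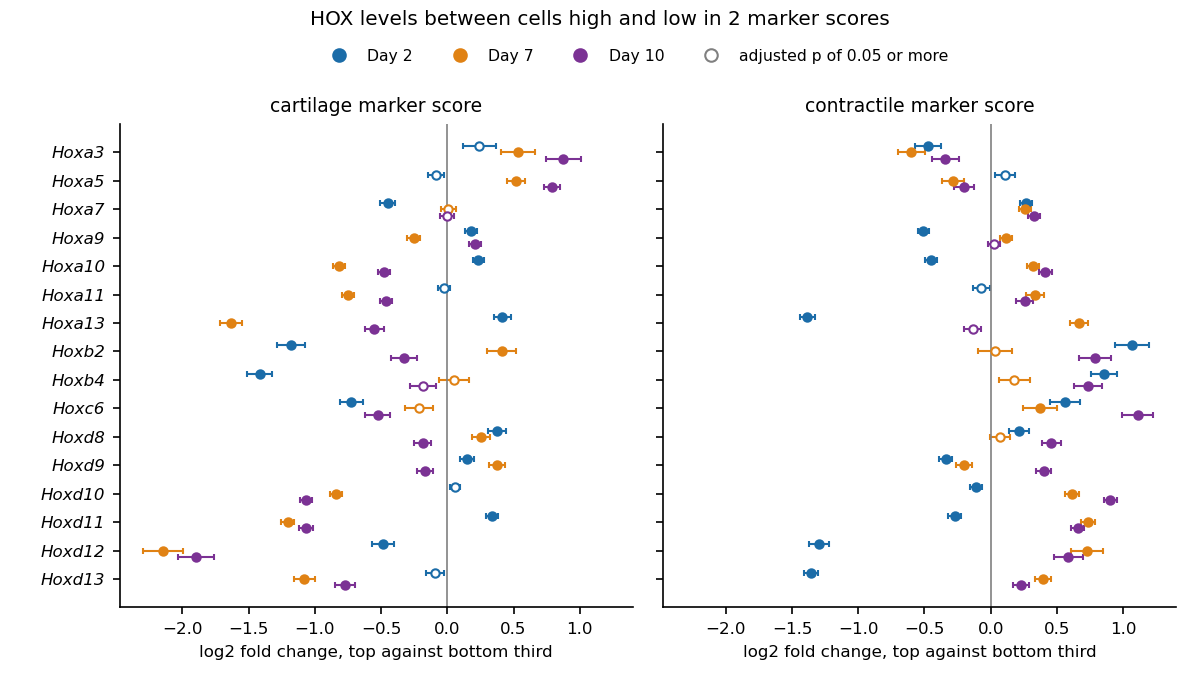
Log2 fold change of the named members between the top and bottom tertiles of cells, ranked by cartilage genes and by contractile genes, on each day, with bars of 1 SE. In the cartilage ranking *Hoxa13*, *Hoxd11* and *Hoxa10* lie above 0 at Day 2 and below 0 at Day 7 and Day 10.

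For 8 of the 9 members of groups 9 to 13 of clusters A and D, the fall from Day 2 to Day 7 was steeper in the cartilage-rich tertile, by the test of the change in the difference between tertiles, where 27.3% of all genes changed in that direction. Over all members, 13 fell in the top tertile and 18 in the bottom tertile, and the shares of all genes in these fits are not given. In a comparison of days within each tertile, chosen after the values were seen, *Hoxa13* fell from Day 2 to Day 7 by 2.25 ± 0.0969 in the top tertile (edgeR adjusted p = 2.36e-12) and differed by -0.14 ± 0.075 in the bottom tertile (adjusted p = 0.127). *Hoxa10* fell by 1.06 in the top tertile and differed by 0.04 in the bottom tertile (adjusted p = 0.557), and *Hoxa11* fell by 0.71 and differed by 0.06 (adjusted p = 0.356). *Hoxd11* fell in both, by 2.37 and 0.78, *Hoxd12* by 3.27 and 1.56, and *Hoxd10* by 1.56 and 0.61. *Hoxd9* was the member of the 9 with the other order, with falls of 0.90 and 1.08. Among the members outside these 9, *Hoxb4* showed -0.10 in the top tertile (adjusted p = 0.548) and a fall of 1.52 in the bottom tertile, and *Hoxb2* rose by 0.79 in the top tertile and fell by 0.74 in the bottom tertile. *Hoxa5* showed -0.09 (adjusted p = 0.406) and a fall of 0.64, *Hoxa7* 0.15 (adjusted p = 0.141) and a fall of 0.26, and *Hoxc6* falls of 0.53 and 0.99. Changes in the difference between tertiles are given in the closing section where that difference was called on both days with opposite signs. Over all genes that change was called lower in 27.3% and higher in 25.7% from Day 2 to Day 7, and in 24.6% and 26.7% from Day 2 to Day 10. In the contractile ranking that follows, these shares were 18% and 24.1%, and 21.8% and 24.2%.

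A second ranking used 5 contractile genes (*Acta2*, *Tagln*, *Cnn1*, *Myl9* and *Tpm2*), which mark smooth-muscle-like and spreading mesenchyme cells, in the same cells. Muscle precursor cells stayed in the ranking, 338 and 417 at Day 2 and 23 and 10 at Day 7, and their part in the differences was not tested. Of 33 members tested among 17640 genes, 10 were lower in the top tertile at Day 2 and 16 higher, against 32.8% and 28.9% of all genes. At Day 7 5 were lower and 14 higher (29.8% and 32% of all genes), and at Day 10 5 were lower and 21 higher (31.5% and 32.5%). Cells of the top tertile held a median of 22 and 21 contractile UMIs in the Day 2 libraries, 9 and 8 in those of Day 7 and 20 and 20 in those of Day 10, and began at 8 and 12, at 3 and 2, and at 7 and 7 UMIs. The name contractile-rich therefore covers cells of lower marker levels at Day 7, where 694 and 1273 cells were tied at that limit. Without Day 2 replicate A the number higher at Day 2 was 9, without Day 7 replicate A the number lower at Day 7 was 2, and the number lower at Day 10 was 3 without Day 10 replicate A and 1 without Day 10 replicate B.

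Contractile-rich cells held less 5′ HOX RNA at Day 2 and more at Day 7. Of the 9 members of groups 9 to 13 of clusters A and D, 8 were lower in the top tertile at Day 2 and none higher. At Day 7 1 was lower and 8 were higher, and at Day 10 none was lower and 7 were higher. *Hoxd13* stood at 17.1 (top) and 52.2 (bottom) plain CPM in Day 2 replicate A and 17.3 and 46.4 in Day 2 replicate B, at 19.6 and 13.4, and 15.9 and 12.5 at Day 7, and at 18.7 and 15.7, and 14.7 and 13.4 at Day 10. The log2 fold change was -1.36 ± 0.0554 at Day 2 (edgeR adjusted p = 9.47e-10), 0.40 ± 0.0611 at Day 7 (adjusted p = 0.000116) and 0.23 ± 0.0584 at Day 10 (adjusted p = 0.00439).

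For *Hoxa13* the same values were -1.39, 0.67 and -0.14, the last of which did not pass (edgeR adjusted p = 0.0729). *Hoxd12* gave -1.30, 0.73 and 0.59, and *Hoxa10* gave -0.45, 0.32 and 0.41. *Hoxa11* showed no call at Day 2 (-0.07, adjusted p = 0.352). In cluster B 7 of 8 tested members were higher in contractile-rich cells at Day 2 and 8 of 8 at Day 10 (28.9% and 32.5% of all genes), including *Hoxb2* (1.07 and 0.79) and *Hoxb4* (0.86 and 0.73). At Day 7, 3 of the 8 were higher (32% of all genes), and *Hoxb2* (0.03, adjusted p = 0.838) and *Hoxb4* (0.18, adjusted p = 0.207) passed no test. In Day 2 replicate A cells at the top had more UMIs than those at the bottom (medians 29827 and 14894) and in Day 2 replicate B fewer (8158 and 16979). Cells at the top had more in every later library. The medians (top and bottom) were 25184 and 19225, and 25100 and 16092 at Day 7. At Day 10 they were 35069 and 23257, and 34065 and 20260. The part of depth in these differences was not tested.

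Small groups of cells chosen by a single marker also differed in group 13 RNA, and are described without a test. A cell entered a group with at least 2 UMIs of the marker after thinning, and intervals are exact Poisson 95% intervals that cover counting error only. In cells with *Gdf5*, the joint interzone ligand, *Hoxa13* stood at 78.9 plain CPM (66.2 to 93.3, 120 cells) and 71.8 (57.9 to 88.0, 87 cells) in the Day 2 replicates, against 22.8 and 21.5 in all cells of at least 3000 UMIs. At Day 7 it stood at 52.4 (37.1 to 71.9, 76 cells) and 45.6 (34.2 to 59.7, 135 cells), against 10.4 and 9.40. These Day 7 cells were shallow, with median depths of 6566 and 6180 UMIs against 18576 and 17053 in all cells, while at Day 2 the medians were 12498 and 14357 against 19568 and 12878. *Hoxd13* in the same cells was at 121 (105 to 139) and 147 (126 to 169) at Day 2 and at 66.1 (48.8 to 87.7) and 45.6 (34.2 to 59.7) at Day 7, against 31.7 and 30.5, and 17.1 and 14.7 in all cells.

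Cells with *Msx1*, a marker of undifferentiated and interdigital mesenchyme, were about as high at Day 2, with *Hoxd13* at 157 (143 to 171, 147 cells) and 147 (130 to 165, 89 cells) and *Hoxa13* at 79.4 and 86.2 CPM. In cells with *Prg4*, the lubricin gene of the joint surface, *Hoxa13* stood at 29.7 and 24.9 at Day 7 and at 32.4 and 33.0 at Day 10, against 10.4 and 9.40, and 11.4 and 10.8 in all cells. *Hoxd13* stood at 35.8 and 31.2 at Day 7 and at 39.7 and 38.2 at Day 10, where all cells held 17.1 and 14.7, and 18.2 and 14.9. *Hoxd9*, in contrast, stood at 5.37 and 7.57 in *Prg4* cells at Day 7 and at 5.28 and 6.36 at Day 10, where all cells held 12.7, 12.5, 12.4 and 12.6. *Prg4* cells thus held more *Hoxa13* and *Hoxd13* and less *Hoxd9* than all cells of the same library, and they were deeper, with medians of 33464 to 36916 UMIs. A low level was not particular to *Hoxd9*. *Hoxd8* stood at 7.67 and 7.88 in *Prg4* cells at Day 7 and at 7.99 and 8.03 at Day 10. All cells held it at 14.9, 14.7, 17.2 and 17.8. *Hoxd12* was higher instead, at 8.13 and 7.12 at Day 10 against 4.21 and 3.84 in all cells.

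Cells with *Tnmd*, the tendon gene, held little *Hoxa13*. It stood at 2.59 and 1.74 CPM in the Day 2 libraries, 1.001 and 1.55 in those of Day 7 and 4.82 and 2.05 in those of Day 10, each below the level of all cells, and the cells of Day 2 replicate B had a median of 7120 UMIs. *Hoxa11* in the same cells was at 54.5 and 56.7 at Day 2, then 29.0 and 17.6 at Day 7 and finally 31.5 and 30.2 at Day 10, against 34.4 and 34.1, 23.6 and 23.8, and 23.0 and 23.2 in all cells. Cells with *Col10a1*, the collagen of hypertrophic cartilage, held *Hoxa13* at 10.1 and 11.6 at Day 7 and at 8.73 and 8.86 at Day 10, where all cells held 10.4 and 9.40, and 11.4 and 10.8. The summed level in muscle precursor cells was 230 and 238 CPM of all members together at Day 2, against 633 and 614 in all cells and 196 and 239 in the immune cells of the same libraries. That sum does not describe each member. *Hoxa7* stood higher in the muscle precursor cells, at 32.6 (29.2 to 36.3) and 35.4 (31.3 to 39.8), against 23.1 and 21.7 in all cells. The immune cells held it at 11.6 and 4.19, from 6 and 1 UMIs.

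**Figure D5:**
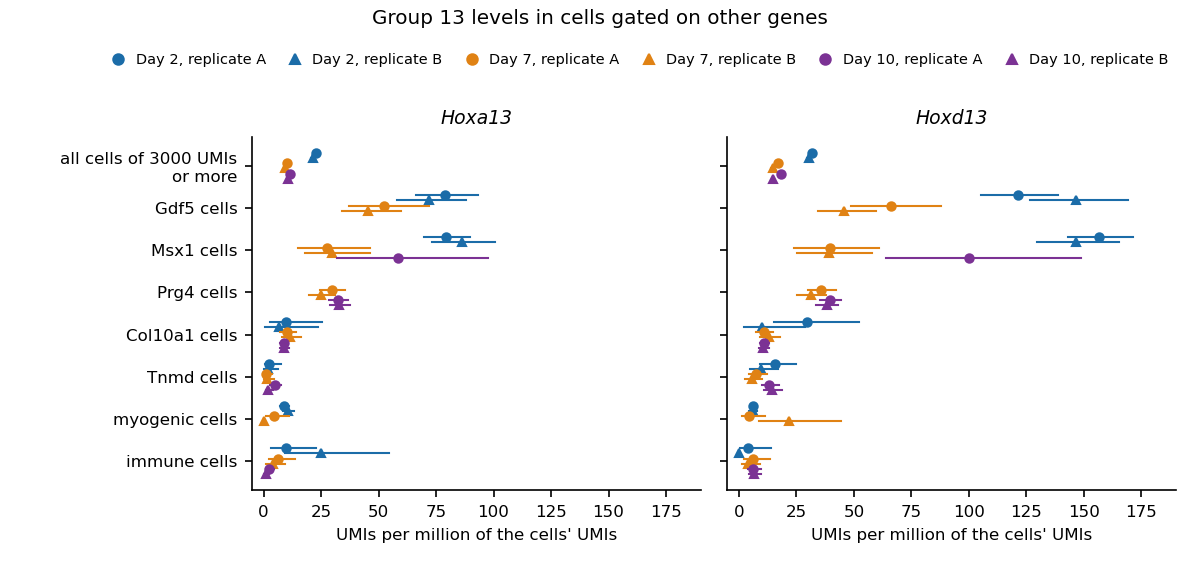
*Hoxa13* and *Hoxd13* in cells with a marker, in plain CPM by library, with exact Poisson 95% intervals. *Gdf5* and *Msx1* cells lie above all cells at Day 2, *Prg4* cells lie above them at Day 7 and Day 10, and *Tnmd* cells lie below them.

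HOX proteins bind DNA with cofactors of the PBX, MEIS and PKNOX families, and most of these fell with them. From Day 2 to Day 7, 8 of 9 cofactor genes fell and 1 rose, where 34.6% and 35.7% of all genes did, and the same counts held from Day 2 to Day 10. *Meis2*, a gene of the proximal limb bud, held 56.1 and 68.0 CPM for Day 2, 24.4 and 23.1 for Day 7 and 18.2 and 21.8 for Day 10, and changed by -1.38 ± 0.107 to Day 7 (edgeR adjusted p = 4.64e-06). *Meis3* was the cofactor that rose, from 2.52 and 1.73 at Day 2 to 9.76 and 10.2 at Day 10 (2.23 ± 0.143, adjusted p = 1.02e-06).

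Genes known to depend on group 13 proteins in the limb bud fell on the whole interval in 5 of 5 cases, where 38.2% of all genes tested fell. *Aldh1a2*, a retinoic acid enzyme of the interdigital tissue, went from 18.9 and 19.3 CPM at Day 2 to 2.42 and 2.15 at Day 7 and 1.94 and 2.62 at Day 10 (-3.06 ± 0.125 to Day 7, edgeR adjusted p = 1.15e-07). *Sostdc1*, a BMP antagonist, went from 39.7 and 38.7 to 9.91 and 10.9 and then 3.08 and 4.48 (-3.38 ± 0.144 from Day 2 to Day 10, adjusted p = 9.08e-08). *Bmp7* fell by 1.59 ± 0.0983 to Day 7 and *Epha7*, a cell-sorting receptor, by 1.75 ± 0.0882 (adjusted p = 1.2e-06 and 3.58e-07). From Day 7 to Day 10, 4 of these 5 genes fell again, where 25.9% of all genes fell. Over that interval *Hoxa13* and *Hoxd13* themselves had no call (0.14 ± 0.0722 and 0.03 ± 0.105, edgeR adjusted p = 0.135 and 0.804). Whether the falls of these 5 genes depend on group 13 RNA was not tested.

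Of 13 tested genes that flank the clusters, 7 fell and 3 rose from Day 2 to Day 7, against 34.6% and 35.7% of all genes. Beside cluster D, *Evx2* fell by 1.16 ± 0.175 and *Lnpk* by 0.61 ± 0.0483 (edgeR adjusted p = 0.000345 and 5.69e-06). *Mtx2*, on the other side of cluster D, fell by 0.66 ± 0.0591 to Day 7 and rose by 0.64 ± 0.0591 to Day 10 (adjusted p = 1.21e-05 and 7.68e-05). Beside cluster A, *Skap2* rose from 7.13 and 6.51 CPM at Day 2 to 22.9 and 23.8 at Day 10 (1.78 ± 0.0607, adjusted p = 2.8e-08). Of 9 tested noncoding RNAs of the clusters, 4 fell and 2 rose from Day 2 to Day 7, against the same shares of all genes. *Hottip*, transcribed beside *Hoxa13*, fell by 1.12 ± 0.203 (adjusted p = 0.00107).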

How the data were processed

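The files hold UMI counts per gene and cell barcode from 6 libraries (10x 3′ chemistry, which keeps the strand of a read). Per the labels and the methods of the study, the authors aligned the reads to GRCm38 with Cell Ranger 6.1.2, which counts with STAR, and the deposited counts are not normalized. The authors analysed cells with Seurat 4.1.0, and their annotation of cells was not used here. Barcodes were kept by the limits of the study on UMIs (at least 800 or 1000), genes (200 to 7500), mitochondrial RNA and ribosomal RNA (at most 35% or 40%). The mitochondrial limit was 25% at Day 2, 30% at Day 7 and 40% at Day 10. Doublets were not called. Gene positions came from a GENCODE annotation of GRCm38 and promoter windows from RefSeq.

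Counts of the kept cells were summed per library and tested with edgeR 4.0.16 (R 4.3.3; filterByExpr, TMM, quasi-likelihood test, all 6 libraries in 1 fit, 3 residual degrees of freedom, Benjamini-Hochberg over all 18987 genes tested, adjusted p under 0.05). Comparisons of tertiles kept the library as a block. Tests were tried first on simulated data. The p-values measure the spread between cultures grown from pooled embryos. Intervals and floors cover counting error only, and 3 UMIs served as the floor. Values in every library are given for the 16 members that reached a mean of 5 CPM on a day or that belong to paralogue groups 9 to 13 of clusters A and D, and other named members and genes were picked after their values were seen. Single values of 1 member and of 1 cofactor gene are not reported here, and both stay in the counts and sums. The members and lists were chosen with earlier results of these data known. Whether replicate letters pair the cultures was checked by the correlation of deviations from the day means over 8481 genes, which was -0.06, -0.09 and -0.08, so that no block was used between days.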

Additional observations from a re-analysis of the deposited data

Results flagged for a closer look

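Among the 16 members given in full, in 23 cases the difference between the top and bottom tertile of cells at a later day differed from that at Day 2 by a test of the change itself (edgeR quasi-likelihood test, Benjamini-Hochberg over all genes tested), with the difference called on both days and of opposite sign. They came from 10 genes, 10 cases in the cartilage ranking and 13 in the contractile ranking. The share of all genes that meet this combined rule is not given, so that the count describes these members only. The change kept its sign and its call in 11 of 11 alternatives for each of the 23. That check covers the change and not the call of the difference on each day. Some of those calls lay near the threshold. In the contractile ranking they include *Hoxd10* at Day 2 and *Hoxa9* at Day 7 (edgeR adjusted p = 0.0471 and 0.0484). In the cartilage ranking *Hoxd9* had 0.0307 at Day 2 and 0.0278 at Day 10 (edgeR adjusted p). Both rankings used the same cells, and the later days share the Day 2 libraries, so that the cases are not independent.

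In the cartilage ranking, the difference (top minus bottom, log2) at Day 7 minus that at Day 2 was -2.05 ± 0.102 (SE) for *Hoxa13* (edgeR adjusted p = 3.1e-08), -1.54 for *Hoxd11*, -1.05 for *Hoxa10*, -0.43 for *Hoxa9* and 1.59 for *Hoxb2*. *Hoxb2*, of cluster B, had the opposite sign to the other genes of these 10 cases, since on the TMM scale it was lower in cartilage-rich cells at Day 2 and higher at Day 7. In plain CPM at Day 7, *Hoxb2* stood at 5.12 (top) and 4.03 (bottom) in replicate A but at 4.71 and 4.80 in replicate B. Outside the 16 members the sign turned from negative to positive, with calls on both days, at Day 7 for *Hoxa4* (-0.55 to 1.42, edgeR adjusted p of the change = 9.17e-05), *Hoxb7* (-1.18 to 0.53, adjusted p = 0.00013) and *Hoxc8* (-1.85 to 1.21, adjusted p = 0.0024), and at Day 10 for *Hoxa4*. The values of *Hoxc8* rest on low counts, with 27 and 35 UMIs in the whole Day 2 libraries. *Hoxd10* and *Hoxa5* turned sign with a called change from Day 2 to Day 7 (adjusted p = 3.91e-07 and 0.000184), but had no call at Day 2. For Day 10 minus Day 2 the values were -1.40 for *Hoxd11*, -0.97 for *Hoxa13*, -0.71 for *Hoxa10*, -0.56 for *Hoxd8* and -0.31 for *Hoxd9*, of which the last had the highest adjusted p (edgeR adjusted p = 0.00658).

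In the contractile ranking, the change from Day 2 to Day 7 was 2.05 for *Hoxa13*, 2.02 for *Hoxd12*, 1.75 for *Hoxd13*, 1.005 for *Hoxd11*, 0.77 for *Hoxa10*, 0.72 for *Hoxd10* and 0.62 for *Hoxa9*. From Day 2 to Day 10 it was 1.88 for *Hoxd12*, 1.59 for *Hoxd13*, 1.01 for *Hoxd10*, 0.93 for *Hoxd11*, 0.86 for *Hoxa10* and 0.74 for *Hoxd9*. All 13 were positive, and the members concerned lie in paralogue groups 9 to 13 of clusters A and D. *Hoxa11*, which had no call at Day 2, went from -0.07 to 0.34 at Day 7 (edgeR adjusted p of the change = 0.00383).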

How the results depend on the processing

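Of the 48 log2 fold changes of the 16 members given in full, each kept its direction and its side of the threshold with DESeq2 size factors, with the DESeq2 test, without the filter on low counts, with cells of at least 3000 UMIs, with the 4 libraries compared alone and without muscle and immune cells. With all barcodes, *Hoxd11* moved from Day 7 to Day 10 by -0.0193, and *Hoxa10* lost its call over the same interval. The numbers of members called and the members' directions under those settings stayed within 1.5 times the counts given. The cause of the changes below was not tested.

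The replicate letters do not pair the cultures. With the replicate block the counts of members called were 24, 17 and 26 for Day 7 against Day 2, Day 10 against Day 7 and Day 10 against Day 2, and *Hoxa10* lost its call from Day 7 to Day 10 (edgeR adjusted p = 0.051). In the tertile comparisons, where the block is the library, the counts without it were 18 to 24.

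In cells without proliferation UMIs, the change from Day 2 to Day 7 was 0.0434 for *Hoxa3* and 0.00725 for *Hoxa7*, and 3 calls of the 48 were lost and 2 gained. In the bottom cartilage tertile, 3 members rose from Day 2 to Day 7 and 4 fell from Day 7 to Day 10. There the sign turned from Day 2 to Day 7 for *Hoxa10* (0.0400) and *Hoxa11* (0.0590), from Day 7 to Day 10 for *Hoxd13* (-0.0752), *Hoxd11* (-0.14), *Hoxd9* (0.17), *Hoxa10* (-0.0840) and *Hoxa13* (-0.19), and from Day 2 to Day 10 for *Hoxa7* (-0.00123) and *Hoxb2* (-0.0450). In the top cartilage tertile, 10 members rose from Day 2 to Day 7, 11 were called and 8 rose from Day 7 to Day 10, and 14 rose from Day 2 to Day 10. There it turned from Day 2 to Day 7 for *Hoxa7* (0.15) and *Hoxb2* (0.79), from Day 7 to Day 10 for *Hoxd11* (-0.0273), *Hoxd8* (-0.11), *Hoxa9* (0.14), *Hoxa11* (0.0253) and *Hoxb2* (-0.0711), and from Day 2 to Day 10 for *Hoxd8* (-0.0618), *Hoxa5* (0.31) and *Hoxb4* (0.14). These 3 settings were chosen after the data were seen, and the shares of all genes under them are not given.

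Without each replicate in turn, the members that rose from Day 2 to Day 7 ranged from 3 to 5, the members called from Day 7 to Day 10 from 11 to 17 and those that rose from 9 to 15. *Hoxa3* from Day 2 to Day 7 ranged from -0.18 to 0.0227, and from Day 7 to Day 10 *Hoxd13* ranged from -0.13 to 0.18 and *Hoxd11* from -0.0112 to 0.0517. Members higher in the top cartilage tertile at Day 7 ranged from 7 to 12. In the contractile ranking, members called at Day 2 ranged from 17 to 25 and members higher from 9 to 16, members called at Day 7 from 12 to 19 and lower from 2 to 6, and members lower at Day 10 from 1 to 6. Depth limits the 12 members under 1 CPM, and the tertile fits rest on 3 residual degrees of freedom.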
